A study of Homo sapiens with 21 samples.

Results

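The libraries labelled shARID1A.2 were compared with those labelled shARID1B.2, 3 libraries each and 6 of the 21 RNA-Seq libraries of the study. The cells were SK-N-BE(2), a cell line that was established from a human neuroblastoma and carries amplified MYCN. They received lentiviral particles with a short hairpin RNA (shRNA), which lowers the transcript it is directed to, or a non-silencing control, and RNA was taken 72 h later in biological triplicate. All 7 conditions share the cell line and the transduction. The hairpin sequences behind the labels, and which labels share a hairpin, were not given in the sources used here. Within a label, an effect of the target and one of a particular hairpin cannot be told apart. The names used here are those of the libraries' labels, because the 2 targeted transcripts went against several of them. Both conditions had low ARID1A, and only the libraries labelled shARID1A.2 also had low ARID1B, so the comparison sets lower against higher ARID1B where ARID1A was low in both. The 2 conditions were selected on measured values of these libraries, namely on the levels of ARID1A and ARID1B and on differences between shRNA labels that recurred across groups. Over 18584 genes, the difference between the labels shARID1A.2 and shARID1A.4 had a correlation of 0.47 with that between shARID1B.2 and shARID1B.3 and of 0.79 with that between shARID1A/B.4.2 and shARID1A/B.2.3, whereas the difference between shARID1B.2 and shARID1B.3 and that between both combinations correlated at 0.13. These correlations are across genes and describe how the conditions were chosen.

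ARID1A and ARID1B are the large DNA-binding subunits of the BAF complex, a SWI/SNF chromatin remodeller that uses ATP to slide or evict nucleosomes at enhancers and promoters. A BAF complex holds either ARID1A or ARID1B, never both, and one can take the place of the other in part. In neuroblastoma, BAF acts beside the adrenergic and mesenchymal transcription factors that set the identity of the cell, and genes of its complexes are known targets of mutation in this tumour.

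The 6 libraries held 27954334 to 38004732 reads. The share of reads on mitochondrial genes was 7.50 to 8.20% with the label shARID1A.2 and 6.82 to 7.22% with shARID1B.2. Ribosomal protein genes took 6.63 to 6.84% and 6.31 to 6.47%. The part of these small shifts in the results was not tested. Adrenergic markers were well expressed in all 6 libraries, with MYCN at 77312 to 95144 and PHOX2A at 7228 to 11075 normalised read counts, and 10 of 10 were above 10. The summed level of these 10 markers was 147485 to 152894 and 127625 to 134321 in the 2 conditions, and that of 10 mesenchymal markers was 76137 to 78092 and 68650 to 72004. Both sums rest mostly on 1 gene, MYCN and VIM (55920 to 69666), and members differed in direction, with SNAI2 at 187, 179 and 156 under shARID1A.2 and 655, 774 and 685 under shARID1B.2. PRRX1, a defining mesenchymal factor, was at 0 to 2.32. A normalised read count is the deposited value, which holds a gene's reads after division by the size factor of the library.

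The silenced genes are given first, without a test because they entered the choice of the conditions. ARID1B (chromosome 6, 156776020 to 157210779, GRCh38) had normalised read counts of 2252, 2248 and 2224 under the label shARID1A.2 and 5056, 4913 and 5043 under shARID1B.2. The control libraries had 5793, 5804 and 5791. ARID1B was thus low in the first condition and near the control in the second. ARID1A (chromosome 1, 26693236 to 26782110) had 2169, 2159.9 and 2109 under shARID1A.2, 1962, 1882 and 1916 under shARID1B.2 and 6097, 6374 and 6463 in the control. The label shARID1B.2 therefore goes against its targeted gene, and every direction below is drawn from libraries named by label. A further condition, labelled shARID1A/B.4.2, had ARID1B at 1886, 1881 and 1955 and ARID1A at 5589, 5352 and 5379. With the control it forms a comparison in which ARID1B was low while ARID1A stayed nearer to its control level. A second pair, labelled shARID1A.4 and shARID1B.3, had mean ARID1B of 3100.1 and 6091 with mean ARID1A of 2243 and 2479, a log2 difference in ARID1B of -0.97 beside -1.16 in the first pair.

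**Figure D1:**
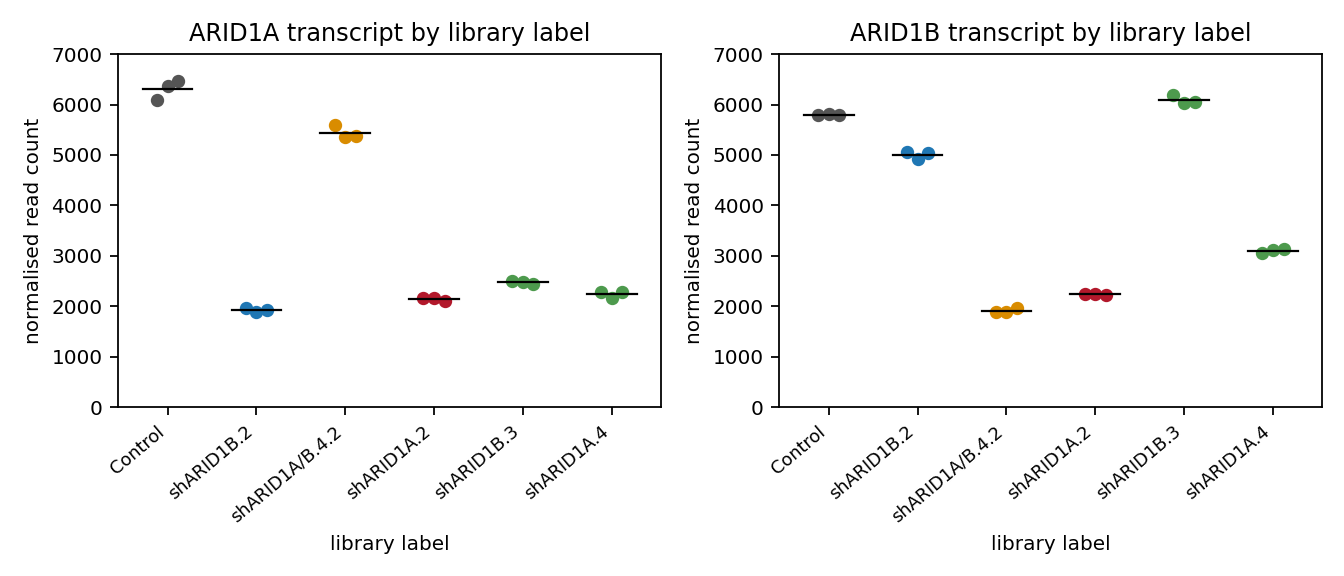
Normalised read count of ARID1A (left) and ARID1B (right) on linear axes from 0, with 1 point per library, a line at the mean of each label and 3 libraries a label. ARID1A lies at 1882 to 2169 in both conditions compared, and ARID1B at 2224 to 2252 under shARID1A.2 against 4913 to 5056 under shARID1B.2.

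Expression was tested with limma on log2 of the deposited value plus 1, over all 21 libraries in their 7 conditions, and a difference is given as shARID1A.2 minus shARID1B.2 on that scale. At an adjusted p-value under 0.05, 5800 of 18584 genes were higher (31.2%) and 5797 were lower (31.2%) in the shARID1A.2-labelled libraries. With a difference of more than 2-fold as well, 961 genes were higher (5.17%) and 931 were lower (5.01%). Requiring at least 10 reads in every library left 375 higher and 623 lower genes at 2-fold, a different balance, and that filter by its construction removes genes near 0 in any condition. The median difference over all genes was 0.02. The 3 libraries of one condition all lay above or all below the other 3 for 12621 genes (67.9%). With 3 libraries against 3, an exact permutation test of a single gene cannot give a p-value below 0.1, so single genes rest on the fit across all genes.

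Among the genes named on the lower side, IFITM3 and DPT had the largest differences. IFITM3 (chromosome 11, 319669 to 327537), a membrane protein that restricts virus entry, had normalised read counts of 9.14, 5.15 and 6.68 under the label shARID1A.2 and 212, 206 and 203 under shARID1B.2. The control had 217, 203 and 257, and the ranges of both low-ARID1A conditions did not overlap. The difference was -4.73 (standard error 0.23, adjusted p = 4.51e-15 from limma). Its neighbour IFITM2 differed by -3.10, with 10.8, 12.4 and 15.6 against 111, 131 and 111. These paralogs are close in sequence, so reads could be split between them, and each is uncertain alone. COL1A1 (chromosome 17, 50183289 to 50201632), the main chain of type I collagen, was the most abundant of the 12 genes named on this side. It had 1317, 1411 and 1363 under shARID1A.2, 12194, 13319 and 12821 under shARID1B.2 and 12727, 13040.5 and 13019 in the control, a difference of -3.23 (95% interval -3.33 to -3.12, adjusted p = 1.94e-24 from limma). The libraries labelled shARID1B.2 overlapped the control for COL1A1. DPT, which encodes the matrix protein dermatopontin, had 4.15, 6.18 and 2.23 against 109, 112 and 118. SCGN, the calcium sensor secretagogin of neuroendocrine cells, had 9.97, 6.18 and 7.80 against 148, 140.1 and 155. TCF7, a transcription factor at the end of the WNT pathway, had 9.97, 8.24 and 11.1 against 97.2, 110.0 and 93.4. In each of these 3 genes the 2 sets of libraries lay far apart, with differences of -4.54, -4.07 and -3.24. The other genes of the 12 largest lower differences were BEGAIN, a postsynaptic scaffold partner (-2.93), INKA1, an inhibitor of the kinase PAK4 (-2.92), SAMSN1, an adaptor protein (-2.81), EPB41L4B (-2.79), PRKCH, protein kinase C eta (-2.79), and TNS3, a tensin of focal adhesions (-2.71).

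Among the genes named on the higher side, NPFF had the largest difference, followed by KIAA0040 and CYSLTR2. NPFF (chromosome 12, 53506690 to 53507638), the precursor of neuropeptide FF, had 113, 115 and 116 under shARID1A.2 and 9.63, 1.16 and 2.67 under shARID1B.2, with 0, 6.72 and 5.14 in the control. The difference was 4.72 (95% interval 3.50 to 5.95, adjusted p = 1.87e-07 from limma). ATF7-NPFF, a readthrough gene that runs into NPFF, differed by 0.43 without passing the test, so the split between both is uncertain. MAOA (chromosome X, 43654907 to 43746824), monoamine oxidase A, was the most abundant of the 12. It had 4113, 4325 and 4264 against 853, 847 and 833, with 143, 135 and 137 in the control, and differed by 2.32 (95% interval 2.21 to 2.44, adjusted p = 4.76e-21 from limma). The libraries labelled shARID1B.2 thus lay above the control, and those labelled shARID1A.2 higher again. MVP (chromosome 16, 29820394 to 29848039), the major vault protein, had 470.3, 448 and 467 against 73.5, 64.8 and 73.8. The control value of MVP was between both conditions, at 127, 150.0 and 143. FZD5, a receptor for WNT ligands, had 258, 346 and 283 against 47.3, 57.9 and 61.4. CYSLTR2, a receptor for cysteinyl leukotrienes, had 109, 97.8 and 90.2 against 8.75, 13.9 and 10.7. The ranges did not overlap in any of the 3, and the differences of MVP, FZD5 and CYSLTR2 were 2.69, 2.39 and 3.06. Others were KIAA0040 (3.08), CREG2 (2.68), KIAA1324 (2.62), RIBC1 (2.36), the proteoglycan SPOCK2 (2.23) and the secreted neural protein NELL2 (2.22).

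**Figure D2:**
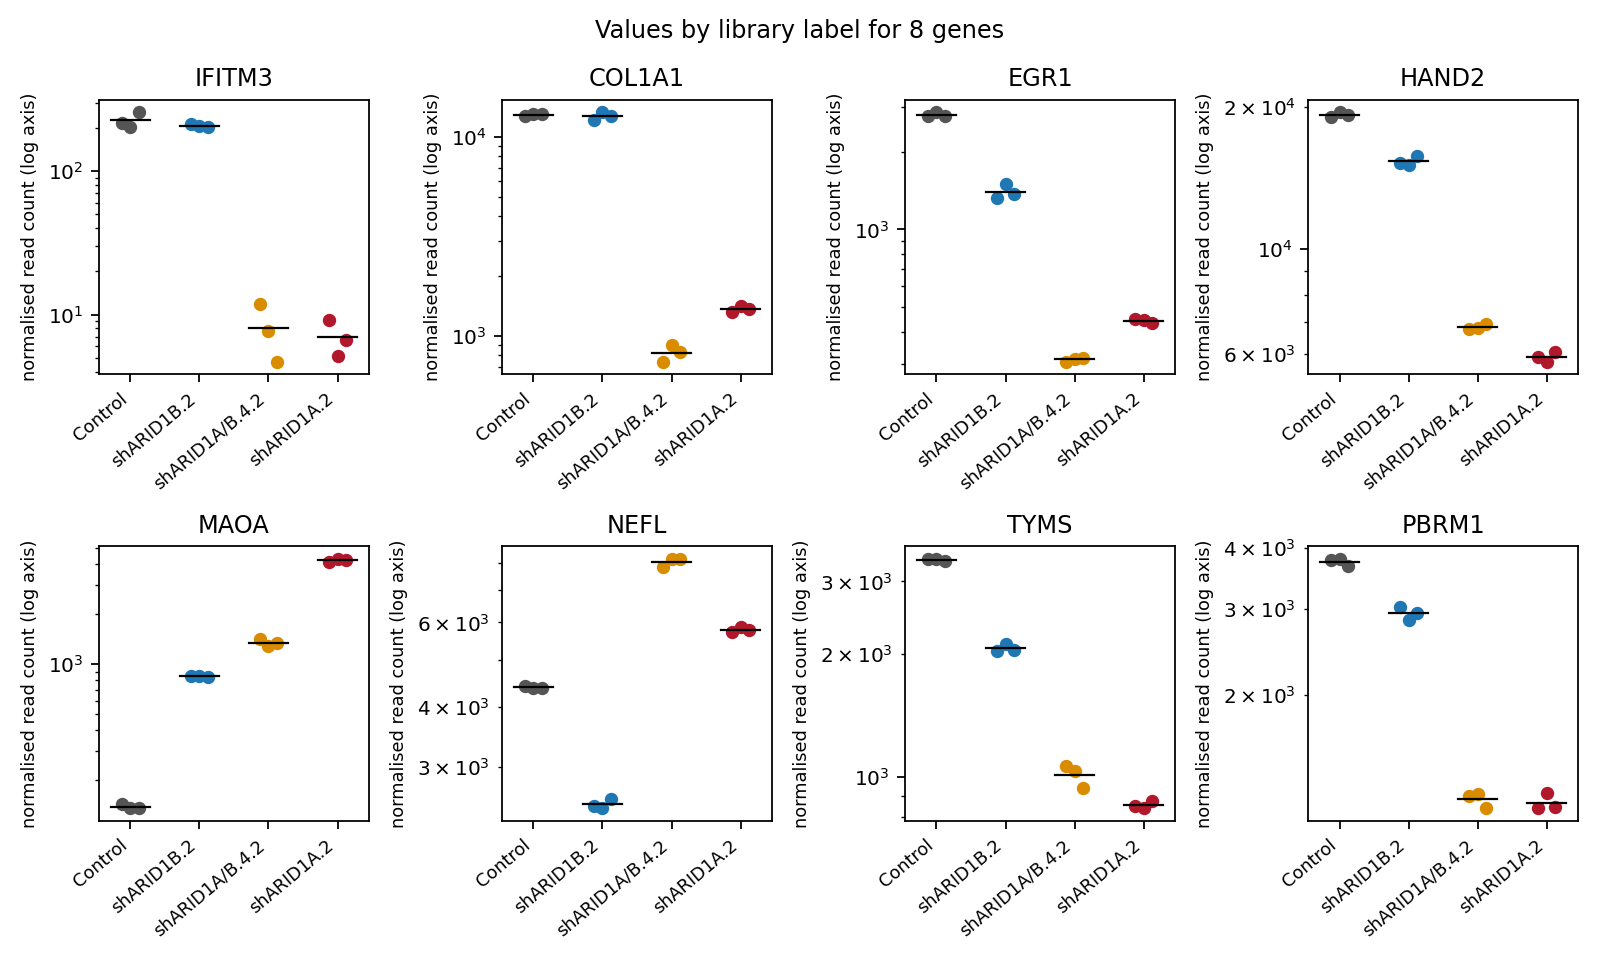
Normalised read counts (log axes) of 8 genes in 4 conditions, with 1 point per library, a line at the mean and 3 libraries a label. IFITM3 and COL1A1 lie near the control under shARID1B.2 and far below it under shARID1A.2 and shARID1A/B.4.2, whereas the EGR1, TYMS and MAOA points under shARID1B.2 lie apart from those of the control.

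Cell cycle genes were lower almost throughout. The S-phase list holds genes of replication and nucleotide supply, and the G2/M list those of the spindle, kinetochore and mitotic entry. Of 43 S-phase genes tested, 40 were lower, 1 was higher and 2 did not pass, with a median of -0.44. Of 54 G2/M genes, 48 were lower, 2 were higher and 4 did not pass, with a median of -0.49. Over all genes tested, 31.2% were lower and the median was 0.02. TYMS, thymidylate synthase, had 851, 839 and 874 under shARID1A.2, 2031, 2106 and 2043 under shARID1B.2 and 3409.7, 3410.4 and 3359.5 in the control. Its difference was -1.27 (standard error 0.04, adjusted p = 2.98e-18 from limma), the most negative of the S-phase list. CCNE2, a cyclin of S-phase entry, differed by -1.16. PCNA, the sliding clamp of replication, had 2662, 2718 and 2638 against 4159, 4221 and 4172, and MCM6, a subunit of the replicative helicase, had 2749, 2752 and 2777 against 5358, 5296 and 5262. Their differences were -0.65 and -0.94. PSRC1, a spindle protein, and CBX5, heterochromatin protein 1 alpha, led the G2/M list with -1.15 and -0.97. MKI67, the proliferation antigen Ki-67, had 12729, 12969 and 12571 against 21431, 20073 and 20981, and CDK1, the mitotic kinase, had 2554, 2613 and 2586 against 3723, 3797 and 3631. The control lay above both conditions, at 28866, 29256 and 28988 for MKI67 and 5933, 5783 and 5809 for CDK1. The higher members were POLR1B, an RNA polymerase I subunit (0.11), the mitotic kinase AURKA (0.24) and the CDK-binding protein CKS1B (0.26). In bulk RNA, fewer cycling cells and less transcript per cycling cell cannot be told apart.

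Promoters of these lists are shown because 2 known motifs of cell cycle control can be read in them. The E2F site was searched as TTTCCCGC and TTTGGCGC and the cell cycle homology region (CHR) as TTTGAA, on both strands of RefSeq windows of 300 bases (GRCh38.p14, from 250 bases before to 50 after the start of a gene). An E2F match was present in 14 of 33 S-phase promoters (42.4%), 2 of 45 G2/M promoters (4.44%) and 631 of all 27305 promoters (2.31%). A CHR match was present in 31 of 45 G2/M promoters (68.9%), 1 of 33 S-phase promoters (3.03%) and 4212 of 27305 promoters (15.4%). The table held a window for 33 of 43 S-phase and 45 of 54 G2/M genes. A match is a run of letters, not a shown binding site. In the following windows the capitals mark the match, an E2F match on the reverse strand in TYMS (chr18:657403-657702, plus strand) and in PCNA (chr20:5126573-5126872, minus strand), and a CHR match in CCNB2 (chr15:59104896-59105195, plus strand), a mitotic cyclin that differed by -0.55.
TYMS: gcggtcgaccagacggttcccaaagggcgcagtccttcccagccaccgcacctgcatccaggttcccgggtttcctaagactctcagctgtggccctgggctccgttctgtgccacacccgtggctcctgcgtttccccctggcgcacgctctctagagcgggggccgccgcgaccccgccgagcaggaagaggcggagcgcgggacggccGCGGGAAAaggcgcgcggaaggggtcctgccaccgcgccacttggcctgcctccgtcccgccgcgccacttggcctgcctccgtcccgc
PCNA: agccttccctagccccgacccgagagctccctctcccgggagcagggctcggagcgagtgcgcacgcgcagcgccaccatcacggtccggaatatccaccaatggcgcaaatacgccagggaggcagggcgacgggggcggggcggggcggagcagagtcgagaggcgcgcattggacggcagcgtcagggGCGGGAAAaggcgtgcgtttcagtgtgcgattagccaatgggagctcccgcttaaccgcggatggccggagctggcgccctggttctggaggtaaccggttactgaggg
CCNB2: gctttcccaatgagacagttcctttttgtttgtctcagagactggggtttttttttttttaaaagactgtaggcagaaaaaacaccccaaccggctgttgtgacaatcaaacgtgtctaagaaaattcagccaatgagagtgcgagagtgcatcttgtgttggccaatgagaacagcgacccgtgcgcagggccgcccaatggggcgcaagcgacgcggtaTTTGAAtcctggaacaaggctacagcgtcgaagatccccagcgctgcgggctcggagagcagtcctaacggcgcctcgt

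Interferon-stimulated genes, which cells use against viruses, were mostly lower. Of 26 tested, 17 were lower (65.4%), 3 were higher (11.5%) and 6 did not pass, with a median of -0.53. The share over all genes tested was 31.2% each way. OAS3, a sensor of double-stranded RNA, had 138, 161 and 151 against 734, 688 and 699.8, and control values of 1506, 1509 and 1557. The difference of OAS3 was -2.23 (95% interval -2.34 to -2.12, adjusted p = 5.93e-21 from limma). SAMD9, an antiviral factor, had 46.5, 40.2 and 36.8 against 164, 164 and 176, a difference of -2.01. Several classic members were near the floor of the assay. IFIT3 had 7.48, 7.21 and 5.57 against a mean of 18.2, and ISG15 had 6.65, 4.12 and 6.68 against 11.4, 17.4 and 24.0. The higher members were STAT2 (0.54), IRF9 and IFI6 (0.49). The interferon-stimulated response element was searched as GAAA, any 2 bases and GAAA again, on both strands of the same windows, and it was present in 13 of the 21 promoters that the table held for this list (61.9%) and in 996 of all 27305 (3.65%). Whether a match goes with the size or direction of a difference was not tested, and IFITM3 is not among the 26 genes of the list. The promoters of IFITM3 (chr11:320811-321110, minus strand) and OAS3 (chr12:112938224-112938523, plus strand), both far lower under shARID1A.2, each held 2 matches, here in capitals.
IFITM3: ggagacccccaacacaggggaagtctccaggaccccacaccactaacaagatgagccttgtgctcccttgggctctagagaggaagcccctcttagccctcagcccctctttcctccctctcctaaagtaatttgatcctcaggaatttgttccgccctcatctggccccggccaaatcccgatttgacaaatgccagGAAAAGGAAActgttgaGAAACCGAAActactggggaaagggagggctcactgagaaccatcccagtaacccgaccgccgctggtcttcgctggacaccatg
OAS3: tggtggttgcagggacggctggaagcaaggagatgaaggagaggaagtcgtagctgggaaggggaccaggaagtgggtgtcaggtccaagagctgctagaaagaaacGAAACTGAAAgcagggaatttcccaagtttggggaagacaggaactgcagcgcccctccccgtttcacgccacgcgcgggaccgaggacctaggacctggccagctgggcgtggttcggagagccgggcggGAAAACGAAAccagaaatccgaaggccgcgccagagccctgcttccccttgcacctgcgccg

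Matrix, integrin and TGF-beta genes were also lower on balance, though with strong exceptions. Of 34 collagen and laminin chains tested, 15 were lower (44.1%) and 7 were higher (20.6%), with a median of -0.23. The share over all genes tested was 31.2% each way. COL6A3, a chain of type VI collagen, differed by -2.26, next to COL1A1. The laminin chains LAMA4 and LAMA2 were higher, by 1.91 and 1.38. LAMA4 had 759.5, 806 and 803 against 217, 188 and 223, with 451, 461 and 524 in the control, so the libraries labelled shARID1B.2 lay below the control and those labelled shARID1A.2 above it. Integrins are the receptors of these matrix proteins. Of 21 tested, 11 were lower (52.4%) and 2 were higher (9.52%), with a median of -0.37. ITGB3, the beta chain of a vitronectin receptor, had 24.9, 16.5 and 14.5 against 54.3, 52.1 and 72.9, and ITGA5, the alpha chain of the fibronectin receptor, had 66.5, 48.4 and 49.0 against 147, 177 and 181. Their differences were -1.65 (adjusted p = 2.55e-07 from limma) and -1.61 (adjusted p = 4.87e-11 from limma). ITGB1, the beta chain shared by most integrins, was slightly higher (0.19), and ITGA6 differed by 0.29, a call that was lost with DESeq2 (0.27) and without replicate 2 of shARID1B.2 (0.17). Of 15 cadherins, 5 were lower (33.3%, near the 31.2% of all genes) and 3 were higher, with a median of -0.14 that changed sign under some alternatives, led by CDH4 (-1.01) and CDH11 (-0.80) on one side and CDH12 (1.66) and CDH10 (0.72) on the other.

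Of 35 ligands, receptors and targets of TGF-beta tested, 23 were lower (65.7%) and 4 were higher (11.4%), with a median of -0.47. The share over all genes tested was 31.2% each way. TGFBR2, the receptor that binds the ligand first, had 75.6, 74.2 and 67.9 against 219.7, 201 and 194, and its difference was -1.48 (adjusted p = 1.08e-12 from limma). The activin subunit gene INHBE differed by -1.84. The co-receptor TGFBR3 went the other way, with 133, 159.7 and 148 against 21.9, 41.7 and 38.2 and a difference of 2.13, as did the activin receptor ACVR2B (1.22). Mesenchymal factors also leaned to the lower side, with 10 of 19 lower (52.6%) and 4 higher (21.1%) and a median of -0.13. SNAI2, a repressor of epithelial genes, had 187, 179 and 156 against 655, 774 and 685, while the control had 632, 646 and 606. SNAI1, its relative, had 204, 184 and 195 against 718, 724 and 734. The differences were -2.01 for SNAI2 and -1.90 for SNAI1, and for neither gene did the ranges overlap. CD44, the hyaluronan receptor, was higher by 1.18, with 691, 733 and 656 against 309, 287 and 317. TBX18 differed by 0.34, a call that was lost without replicate 2 of shARID1A.2 (0.28).

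Neuronal genes were the list with the most positive median. Of 30 cytoskeletal and synaptic genes, 20 were higher (66.7%) and 8 were lower (26.7%), with a median of 0.41. The share over all genes tested was 31.2% each way. GAP43, a growth cone protein, had 1801, 1808 and 1741 under shARID1A.2 against 627, 594 and 586 under shARID1B.2. NEFL, the light neurofilament chain, had 5728, 5873 and 5781 against 2483, 2458 and 2574. The control lay at 3237, 2989.5 and 3123 for GAP43 and 4419, 4384 and 4382 for NEFL. For both genes the libraries labelled shARID1B.2 lay below the control, and those labelled shARID1A.2 reached above it for NEFL but not for GAP43. The differences were 1.56 (adjusted p = 1.51e-21 from limma) and 1.21 (adjusted p = 3.64e-22 from limma). The microtubule proteins of young neurons went the other way. DCX, doublecortin, had 1396, 1569.7 and 1551 against 4737, 4339 and 4669, and STMN2, stathmin 2, had 6475, 6649.7 and 6428 against 17150.1, 15512 and 16929, with differences of -1.61 and -1.34.

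Adrenergic factors, which hold the sympathetic identity of neuroblastoma cells, did not move as a block. Of 20, 7 were higher (35%) and 8 were lower (40%), with a median of 0.00, beside 31.2% each way over all genes tested. HAND2 (chromosome 4, 173524969 to 173530229), a core factor of sympathetic neurons, had 5911, 5778 and 6075 against 15206, 15064 and 15772, below 19025, 19481 and 19187 in the control, and its difference was -1.37 (adjusted p = 1.04e-21 from limma). SIX3 and KLF7 were higher, by 0.86 and 0.48. Of 18 genes of catecholamine metabolism and secretory granules, 9 were higher (50%) and 4 were lower (22.2%), with a median of 0.22. Beside MAOA, the prohormone convertase PCSK1 was higher by 1.20, whereas the granule protein SCG3 (-0.70) and GCH1, which makes the cofactor of tyrosine hydroxylase (-0.37), were lower.

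Signal response genes leaned to the lower side, most in the immediate early and WNT lists. The share over all genes tested was 31.2% each way. Of 29 immediate early and ERK target genes, 18 were lower (62.1%), 1 was higher (3.45%) and 10 did not pass, with a median of -0.49. EGR1, a zinc finger factor induced within minutes of growth factor signals, had 446, 444 and 431 under shARID1A.2, 1321, 1501 and 1379 under shARID1B.2 and 2768, 2857 and 2759 in the control, a difference of -1.67 (adjusted p = 1.51e-21 from limma). The nuclear receptor NR4A1 differed by -1.42, and KLF10 was the higher member (0.38). Of 32 WNT ligands, receptors and antagonists, 19 were lower (59.4%) and 5 were higher (15.6%), with a median of -0.32. Next to TCF7, the ligand WNT5B was lower (-1.61), and next to FZD5, the receptor FZD8 was higher by 0.88. Of 47 axon guidance genes, 21 were lower (44.7%) and 13 were higher (27.7%), with a median of -0.08. The guidance receptors ROBO2 (1.60) and NRP1 (1.27) stood at the higher end, and PLXNA4 (-1.29) and EPHB6 (-1.12) at the lower. The call of EPHB6 was lost with no filter on low values, without replicate 2 of shARID1A.2 (-0.86) and without each library of shARID1B.2 (-1.11 to -1.12). Of 25 CDK inhibitors and p53 targets, 13 were lower (52%) and 7 were higher (28%), with a median of -0.19. PHLDA3 (-1.64) and SESN1 (-1.35) were lowest and the inhibitors CDKN2B (1.22) and CDKN2D highest.

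The metabolic lists had members on both sides, as had all genes tested, of which 31.2% were lower and 31.2% were higher. Of 28 glycolysis and hypoxia genes, 13 were lower (46.4%) and 9 were higher (32.1%), with a median of -0.05. HK1 (chromosome 10, 69269984 to 69401884), hexokinase 1, had 1264, 1224 and 1197 under shARID1A.2, 5273, 5406 and 5391 under shARID1B.2 and 8033, 7966 and 8038 in the control. It differed by -2.12 (95% interval -2.18 to -2.07, adjusted p = 1.59e-25 from limma), the smallest p-value among the genes named. ANKRD37 was lower (-1.62), and the glucose transporter SLC2A3 (1.33) and the peptide precursor ADM (1.23) were higher. Of 25 cholesterol synthesis genes, 11 were lower (44%) and 10 were higher (40%), with a median of -0.02. INSIG1, which retains the sterol sensor in the endoplasmic reticulum (-0.92), was among the lowest, and HMGCS1, an early enzyme of the pathway (0.45), and TM7SF2 (0.90) were highest. Of 30 ATF4 stress and amino acid genes, 13 were lower (43.3%) and 10 were higher (33.3%), with a median of -0.04. NUPR1 (-1.90) and the folate enzyme MTHFD2 (-0.88) were lowest and SESN2 (0.73) and DDIT4 (0.58) highest. Of 79 cytosolic ribosomal protein genes, 28 were higher (35.4%) and 16 were lower (20.3%), with a median of 0.03. The named members RPL15, RPL41, RPLP1 and RPS28 lay between -0.21 and 0.41.

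Other subunits of the SWI/SNF complexes were measured because ARID1A and ARID1B work within them. Of 26 tested, 13 were lower (50%), 5 were higher (19.2%) and 8 did not pass, with a median of -0.08. The share over all genes tested was 31.2% each way. PBRM1 (chromosome 3, 52545352 to 52685917), the polybromo subunit that marks the related PBAF complex, had 1168, 1256 and 1173 against 3026, 2851 and 2949.6, while the control had 3778, 3808 and 3673. Its difference was -1.29 (95% interval -1.36 to -1.23, adjusted p = 5.59e-21 from limma). DPF2, a subunit of the BAF complex, had 1750.0, 1753 and 1779.6 against 2859, 2879 and 2916, a difference of -0.71. DPF3, its relative, and BCL7A were higher, by 0.48 and 0.43. The ATPases SMARCA4 and SMARCA2 differed by -0.08 and -0.04, of which the first passed the test.

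The second pair of conditions also sets low against high ARID1B at low ARID1A, and it shares no library with the first. Between the libraries labelled shARID1A.4 and shARID1B.3, 6485 genes were higher (34.9%) and 6025 were lower (32.4%). Across genes, the differences of both pairs had a Pearson correlation of 0.11 and a Spearman correlation of 0.11. Of the 11597 genes that passed in the first pair, 5050 (43.5%) passed in the second in the same direction, which is 40.4% of the 12510 genes that passed there, and 3680 (31.7% and 29.4%) passed in the opposite direction. Above 2-fold, 324 genes had the same direction in both pairs, 155 higher and 169 lower, and 162 the opposite. The 324 were 17.1% of the 1892 genes above 2-fold in the first pair and 12.7% of the 2545 in the second. The 162 were 8.56% and 6.37%. When the difference between the pairs was itself tested, it passed for 11896 genes (64.0%). The cell cycle lists were lower in both pairs. Of the S-phase genes 39 of 43 were lower in both, and of the G2/M genes 47 of 54, with medians in the second pair of -0.87 and -0.95. Other lists also had medians of the same sign in both pairs. The medians of the first and the second pair were -0.32 and -0.32 for the WNT list (14 of 32 genes lower in both) and -0.47 and -0.32 for the TGF-beta list (15 of 35). They were -0.49 and -0.31 for the immediate early list (13 of 29), -0.37 and -0.52 for the integrins (7 of 21) and -0.23 and -0.24 for the collagens and laminins (10 of 34). The neuronal list had 0.41 and 0.30, with 13 of 30 genes higher in both. Members of these lists also passed in opposite directions in the 2 pairs. They numbered 5 each in the WNT, TGF-beta and integrin lists. The immediate early list and the collagens and laminins had 4 each, and the neuronal list had 8. ITGA5 (-1.61 and 1.91) and INHBE (-1.84 and 2.78) were among them. Over all genes, 2559 were lower and 2491 were higher in both, and 3680 went in opposite directions. The interferon and ATF4 lists differed in the sign of their medians, as did the SWI/SNF, adrenergic, and glycolysis and hypoxia lists. The interferon list had a median of 0.17 in the second pair, with 10 genes higher and 5 lower, and the ATF4 list had a median of 0.71 with 26 of 30 higher and 0 lower, against 10 higher and 13 lower in the first pair. PBRM1 differed by -1.29 in the first pair and -0.02 in the second, and HK1 by -2.12 and 0.27. COL1A1 differed by -3.23 and -0.84. Genes with the largest differences in the first pair were also nearer to 0 in the second. IFITM3 differed by -4.73 and -1.04, IFITM2 by -3.10 and -1.37, and NPFF by 4.72 and 1.65.

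A few genes changed strongly in both pairs, and these were chosen after their values were seen. MAOA differed by 2.32 and 2.44, SPOCK2 by 2.23 and 2.29, and the neuronal pentraxin NPTX1 by 2.00 and 2.48. The potassium channel KCNH6 differed by 1.90 and 2.32, and LAMA4 by 1.91 and 1.67. On the lower side, SCGN differed by -4.07 and -2.27, the sphingosine phosphate receptor S1PR3 by -2.51 and -2.17, and the RNA-binding protein CELF2 by -2.04 and -2.44. PRKCH differed by -2.79 and -1.94, INKA1 by -2.92 and -1.61, and MXRA8 by -1.99 and -1.57.

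**Figure D3:**
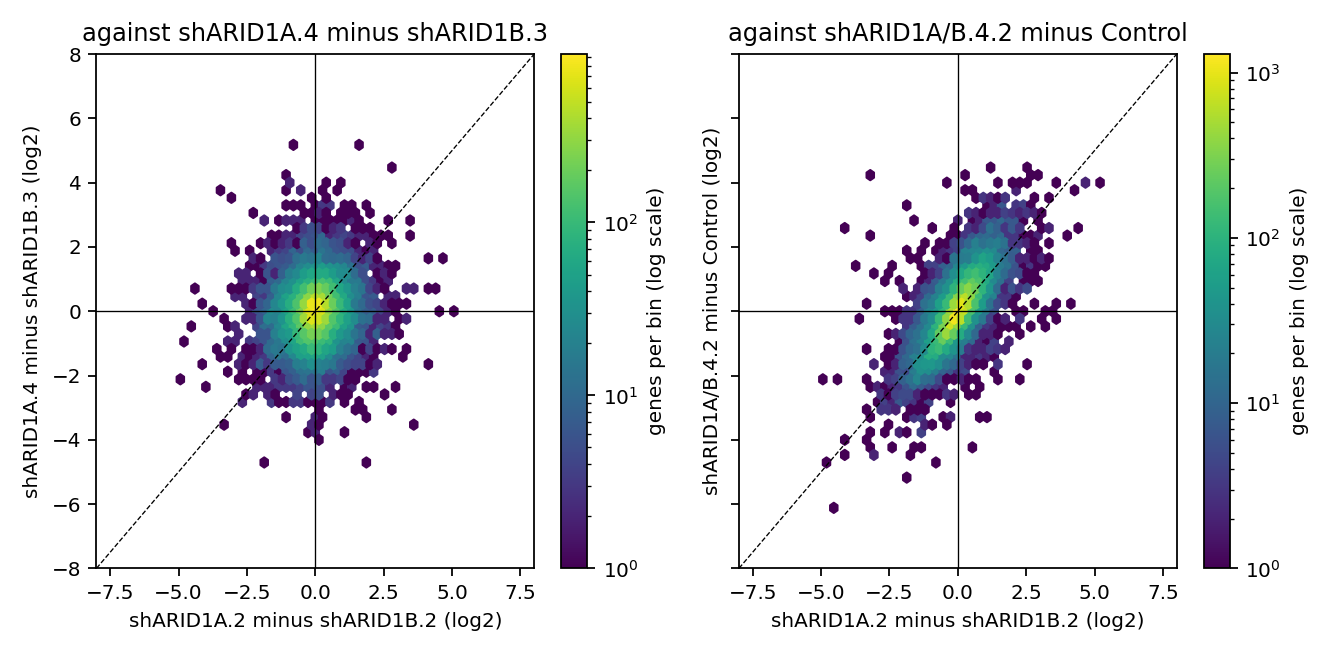
Log2 differences of 18584 genes between the libraries labelled shARID1A.2 and shARID1B.2 (horizontal) against those between shARID1A.4 and shARID1B.3 (left) and between shARID1A/B.4.2 and the control (right), coloured by genes per bin on a log scale, with a dashed line of equal differences. The cloud is round on the left (Pearson correlation 0.11) and drawn out along the line on the right (0.72).

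The comparison of the libraries labelled shARID1A/B.4.2 with the control sets low against high ARID1B with ARID1A nearer to the control level. It also shares no library with the first pair, but libraries of the labels shARID1A.2 and shARID1A/B.4.2 entered the choice of the conditions together, so their likeness is a description only. Whether both labels hold the same hairpin is not known from the sources used here. In this comparison 6522 genes were higher (35.1%) and 6708 were lower (36.1%). Across genes, its differences had a Pearson correlation of 0.72 and a Spearman correlation of 0.72 with those of the first pair. Of the 11597 genes that passed in the first pair, 8760 (75.5%) passed in the same direction, which is 66.2% of the 13230 genes that passed here, and 987 passed in the opposite direction. Above 2-fold, 1328 genes had the same direction, 671 higher and 657 lower, and 13 the opposite. The 1328 were 70.2% of the 1892 genes above 2-fold in the first pair and 38.8% of the 3423 here. Some named genes had differences of similar size. IFITM3 differed by -4.73 with low ARID1A and -4.71 with ARID1A near the control, and SCGN by -4.07 and -4.07. TCF7 differed by -3.24 and -3.31, HAND2 by -1.37 and -1.49, and PBRM1 by -1.29 and -1.62. Others were less alike, with SPOCK2 at 2.23 and 0.65, NPTX1 at 2.00 and 0.89, LAMA4 at 1.91 and 1.09, and MAOA at 2.32 and 3.27. These genes are examples only, and the departure of one difference from the other passed for 8403 genes.

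The departure of one difference from the other was tested gene by gene, as the first pair minus the comparison with the control. It was positive for 5013 genes (27.0%) and negative for 3390 (18.2%), with a median over all genes of 0.02. This balance depended on scaling, since with values scaled to total reads the median was -0.13 and 2983 departures were positive against 5841 negative. The cell cycle lists departed together. Under shARID1A/B.4.2, all 43 S-phase genes were lower than in the control, with a median of -0.88, and 39 of the 43 had a positive departure and 0 a negative one, with a median of 0.40. Of the 54 G2/M genes, 51 were lower against the control, with a median of -0.85, and 44 had a positive and 2 a negative departure, with a median of 0.37. The differences were thus smaller in size in the pair where ARID1A was low in both conditions. The ARID1B levels given above also lay closer together in that pair than in the comparison with the control. The parts of the ARID1A level, the size of the ARID1B fall and the non-silencing control cannot be told apart. Scaled to total reads, 32 S-phase departures were positive and 1 was negative, with a median of 0.25, and for G2/M genes 39 were positive and 8 negative, with a median of 0.22. Of 25 cholesterol genes, 18 were lower and 2 were higher against the control. Of these 25, 18 had a positive departure and 0 a negative one, with a median of 0.37. Scaled to total reads, 17 were positive and 2 negative, with a median of 0.22. Other lists leaned the same way, with 17 positive and 3 negative for glycolysis and hypoxia genes. The immediate early list had 16 and 5, and the mesenchymal factors had 11 and 1.

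**Figure D4:**
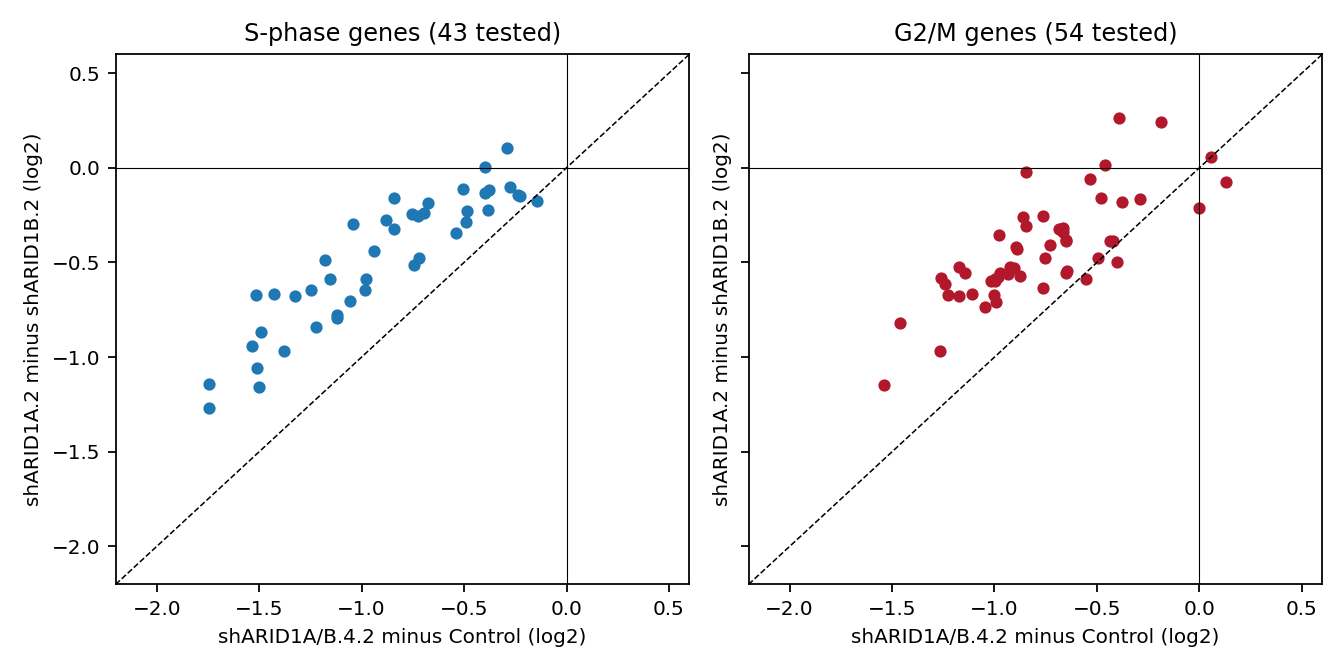
Log2 differences of the S-phase (left, 43 genes) and G2/M genes (right, 54 genes) between shARID1A/B.4.2 and the control (horizontal) and between shARID1A.2 and shARID1B.2 (vertical), 1 point per gene, with a dashed line of equal differences. Nearly all points are negative on both axes and lie above the dashed line, with medians of -0.88 and -0.44 for the S-phase and -0.85 and -0.49 for the G2/M genes.

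The genes with the largest departures included some that moved in opposite directions. SPARCL1, a matrix protein related to SPARC, had 347, 331 and 356 against 158, 153 and 159 in the first pair and 188, 188 and 204 against 422, 414 and 447 in the comparison with the control. It was higher by 1.13 in the first and differed by -1.14 in the second, a departure of 2.28 (adjusted p = 2.72e-16 from limma). EDN3, the ligand endothelin 3, had 40.7, 37.1 and 36.8 against 148, 138 and 142, and 155, 148 and 129 against 1855, 1751 and 1822. The libraries labelled shARID1B.2 and shARID1A/B.4.2 overlapped for EDN3, both far below the control, and the departure was 1.77. CXCR4, a chemokine receptor, departed by 1.75 and C12orf75 by 1.67, both lower in either comparison. On the negative side, RP1L1 had 24.9, 25.8 and 28.9 against 70.0, 71.8 and 80.0, and 35.5, 36.3 and 42.1 against 10.6, 8.95 and 9.24, so it was lower in the first and higher in the second, with a departure of -3.32. DUSP2, a phosphatase that switches off ERK, departed by -2.38 in the same manner. PODN (-3.10), the cadherin CDH7 (-1.99) and the readthrough gene BIVM-ERCC5 (-5.06) did not pass in the first pair, and BIVM-ERCC5 shares its exons with BIVM and ERCC5, so its value is uncertain.

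**Figure D5:**
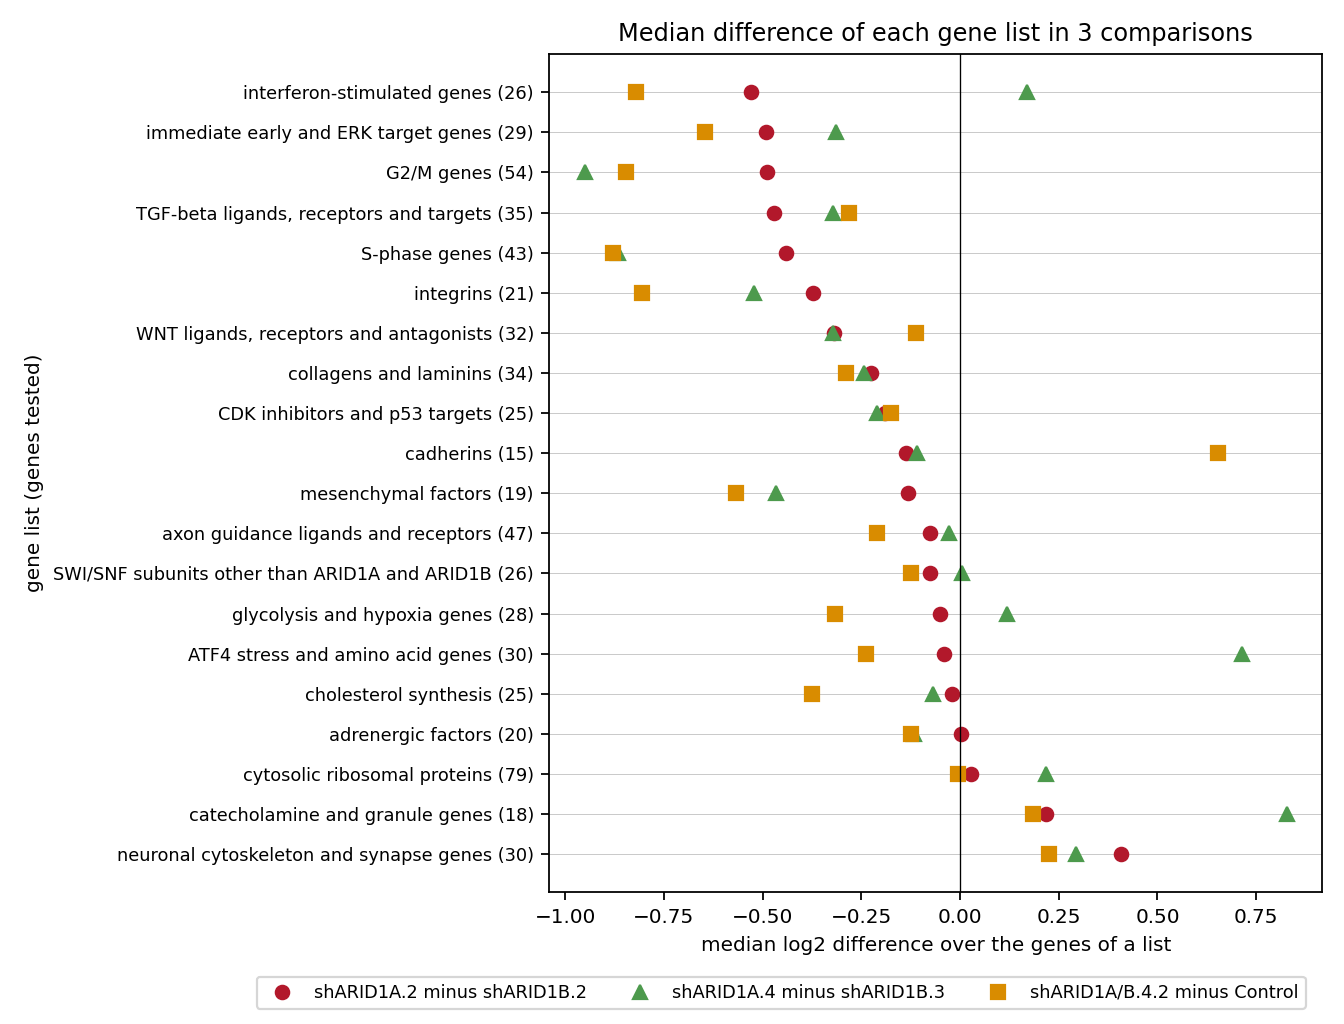
Median log2 difference (horizontal) of each of 20 gene lists (vertical, with the number of genes tested) in 3 comparisons, marked by symbol. In the comparison of shARID1A.2 with shARID1B.2 the medians run from -0.53 for interferon-stimulated genes to 0.41 for neuronal genes, and the interferon and ATF4 lists are those whose median in shARID1A.4 minus shARID1B.3 lies farthest from it on the higher side.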

How the data were processed

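Polyadenylated RNA of 21 libraries (7 conditions of 3) was sequenced from stranded libraries. The values deposited by the authors are a signal for each gene in each library, the read count over 1 size factor, for 60728 gene identifiers. The submitters' processing notes name STAR 2.5.3a, RSEM 1.3.0, DESeq2 1.26.0 and GRCh38, and the annotation release is not given in the sources used here. The authors' 3 comparison tables hold fold changes and p-values and were not used. All columns matched a library by name. Whole reads were recovered from the steps of the values. Every pair of libraries within a condition varied beyond sampling noise, so each counted as 1 sample.

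Log2 of the value plus 1 was fitted with limma 3.58.1 (trend) in R 4.3.3, with Benjamini-Hochberg adjustment over the 18584 genes kept by filterByExpr of edgeR on the recovered reads. A log2 difference on this scale understates low genes. Standard errors and 95% intervals come from this fit, which pools the spread of all conditions. Named genes were the 12 largest differences each way among protein-coding genes with non-overlapping libraries and a mean of at least 50, the 2 called members at each end of each list, and the 5 largest departures each way. A few genes that this rule or the lists name are not reported here. Conditions, lists and tests were chosen with earlier results of these data known, and the fit was tested on simulated data. Alternatives were edgeR 4.0.16 and DESeq2 1.42.0 on recovered reads, pseudocounts of 0.5 and 5, 2 other scalings, no filter, at least 10 reads in every library, only the libraries compared, a replicate block and each library left out. The S-phase and G2/M lists come from Seurat 5.3.0. Of the identifiers tested, 98.7% matched GENCODE release 29 without version, which gave the coordinates.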

Additional observations from a re-analysis of the deposited data

Results flagged for a closer look

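The difference between the libraries labelled shARID1A.2 and shARID1B.2 departed from that between shARID1A.4 and shARID1B.3 for 11896 genes, and from that between shARID1A/B.4.2 and the control for 8403 genes, both by limma's test of the departure itself. Among the genes named by the rule, 5 passed in both pairs in opposite directions with more than 2-fold in each. CYSLTR2 differed by 3.06 in the first pair and -2.33 in the second, a departure of 5.39 (adjusted p = 3.02e-10). The integrin chain ITGA5 differed by -1.61 and 1.91, a departure of -3.52 (adjusted p = 1.12e-14). INHBE differed by -1.84 and 2.78, a departure of -4.62, EPB41L4B by -2.79 and 1.24, a departure of -4.04, and the focal adhesion gene TNS3 by -2.71 and 1.02, a departure of -3.73. Groups of 3 libraries were not examined for single libraries that stand apart.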

How the results depend on the processing

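The 4 counts of genes kept within 1.5 times their value under all alternatives but one. With at least 10 reads in every library, 998 genes differed more than 2-fold in place of 1892, and 37.6% in place of 50.8% of them were higher. The split of the departures from the comparison with the control moved from 59.7% to 33.8% positive with values scaled to total reads. Leaving out 1 library at a time gave 10899 to 10994 genes changed, 1831 to 1865 above 2-fold, 11535 to 11649 departures from the second pair and 7865 to 8102 from the comparison with the control. The lists' medians stayed within the spread between libraries in 288 of 320 alternatives, and the medians of the adrenergic, cholesterol and cadherin lists, all close to 0, changed sign in some. Among the genes named, 8 alternatives ended a call, those of ITGA6, TBX18 and EPHB6 given with their values above, while PODN and CDH7 were called in the first pair by edgeR, by DESeq2 and with only the libraries compared, and PODN also with a pseudocount of 5. Same-numbered libraries of both conditions had correlations of 0.00, 0.01 and -0.02 between their deviations from the condition means. No pairing by number was used in the main fit. Whether same-numbered libraries were prepared together is not known from the sources used here. The replicate block gave 11567 genes changed, 1896 above 2-fold, and 11872 and 8393 departures. Genes under about 10 normalised read counts, such as several interferon-stimulated genes, are limited by depth.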
